A study of Mus musculus with 15 samples.

Results

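Macrophages exposed to 200 µM heme-albumin were compared with untreated macrophages, gene by gene across the whole transcriptome. The 6 libraries were chosen by their column names, which carry the treatment (3 for heme-albumin at 200 µM and 3 for the control), out of 15 in the series. All 15 were mouse bone marrow derived macrophages, grown from the femurs and tibias of mice aged 8 to 10 weeks for 7 days in medium with serum and M-CSF at 10 ng/ml. M-CSF is the growth factor that turns marrow precursors into macrophages. The other groups, of 3 libraries each, received the higher dose of 400 µM or the cytokines IFN-γ and IL-4, each alone at 10 ng/ml. The control libraries carry no treatment in the labels. Heme-albumin was hemin, the chloride of heme, dissolved in alkali and bound to human serum albumin, and the labels name no culture given albumin alone, so heme and its carrier cannot be told apart in this comparison. The labels give neither mouse strain and sex nor the hours under treatment. They use this exposure to make macrophages resemble those that have eaten red blood cells, and the comparison asks which transcripts differ after it.

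Macrophages of spleen and liver clear aged red blood cells and take the heme out of hemoglobin. Heme oxygenase opens the porphyrin ring and frees iron, which is stored in ferritin or exported through ferroportin. Heme also binds BACH1, a repressor of antioxidant genes, and oxidative stress releases NRF2, an activator of the same genes, from its inhibitor KEAP1. Interferon genes and sterol genes are driven by other factors, the STAT and IRF proteins and the SREBP proteins.

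The treated macrophages held far more transcript for heme breakdown and iron export: Hmox1, heme oxygenase 1, was 30.5-fold and Slc40a1, ferroportin, 14.4-fold higher than in controls (n = 3 each). Antioxidant genes and the proteasome rose, with 18 of 23 glutathione genes, 17 of 21 thioredoxin and quinone genes and 28 of 31 proteasome subunits higher. Sterol synthesis and the type I interferon response fell, with 19 of 23 and 28 of 29 genes lower. Of all genes tested, 14% rose and 9.48% fell. The errors and tests behind these values follow.

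Total counts were 13937722, 15252357 and 8427352 in control replicates 1 to 3 and 14329361, 12705027 and 9819362 in the heme-albumin replicates. The low-count filter left 11883 of 25700 genes for testing. Levels are CPM, read counts relative to a library's total after the libraries were scaled to each other, and changes are log2 fold changes ± SE, which stand alone in parentheses after a gene's name. A gene rose or fell when its Benjamini-Hochberg adjusted p in edgeR's quasi-likelihood test was under 0.05. Nothing in the labels says that replicates came from separate animals, so the p-values measure the spread between cultures or libraries, which may be technical. In the main test that spread was taken within groups over all 15 libraries of the series. It therefore includes the groups that are not compared here. Counts per gene do not allow levels to be compared between genes of different length, so levels are compared within a gene. Each of the 6 libraries was also left out in turn, and other fits were DESeq2, the scaling factors of DESeq2 or of upper quartiles, no low-count filter or one at 5 CPM, only the 6 libraries compared, the replicate number as a block, and those 6 libraries with the block (written as both below). A count of a gene list that one of these moved by over 1.5 times is given with that value, and a call that a setting ended is given beside its gene.

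Macrophage marker genes were expressed in both groups. All 8 macrophage markers were tested, 0 rose and 1 fell, and their summed level was 33078 to 38769 CPM in controls and 46728 to 55482 CPM with heme-albumin, most of it Lyz2. The Fc receptor Fcgr1 was the member that fell (-0.93 ± 0.24). Fcgr1 did not pass without control replicate 2 or 200 µM replicate 2 (adjusted p = 0.0627 and 0.0733, with a range of 0.00111 to 0.0733 over the alternatives). In the macrophage marker list 1 rose with the 6 libraries alone, 2 rose with both, 2 fell with the 6 libraries alone or with the block and 5 fell with both. The T cell genes Cd3e, Cd3d and Trac, the B cell genes Ms4a1 and Pax5, and the red cell genes Hba-a1 and Alas2 were at 0 counts in all 6 libraries. The globin gene Hbb-bt had 0 counts in each control and 8, 3 and 4 counts with heme-albumin. Among the 6 B cell markers, Ighm, the heavy chain of IgM, was read at 225, 214 and 229.5 CPM in controls and 59.9, 25.5 and 73.2 CPM with heme-albumin (-2.08 ± 0.67). The other B cell marker tested, Cd79b, did not pass (adjusted p = 0.824). Cd79b had 44, 36 and 16 counts in controls and 20, 36 and 30 with heme-albumin. Ighm did not pass without control replicate 1, 2 or 3 or 200 µM replicate 1, 2 or 3 (adjusted p = 0.0827, 0.069, 0.079, 0.0842, 0.148 and 0.0596, with a range of 7.36e-05 to 0.148 over the alternatives). The 8 T and NK cell markers summed to 5.27 to 5.57 CPM in controls and 0.637 to 1.44 CPM with heme-albumin. Of the 2 tested, Cd4 fell (-3.21 ± 0.58) and Cd2 rose, with 2 counts over the controls and 14 over the treated libraries. Cd2 did not pass in DESeq2 or without control replicate 1, 2 or 3 or 200 µM replicate 1 or 2. Its adjusted p was 0.0515, 0.0604, 0.0588, 0.0583, 0.058 and 0.0919 in these fits. It ranged from 0.00862 to 0.0919 over the alternatives that tested it. In bulk RNA fewer cells of a type cannot be told apart from less RNA per cell. The summed neutrophil markers were 26.8 to 45.2 CPM in controls and 36.7 to 61.8 CPM with heme-albumin, and 0 of 5 tested members passed in edgeR or DESeq2 (0 at an unadjusted p under 0.05). With the replicate block the granule gene Mpo was higher (adjusted p = 0.0248) and Ltf lower (adjusted p = 0.0124) in edgeR. In the neutrophil marker list 1 rose with the 6 libraries alone, with the block or with both, 1 fell with the block and 2 fell with both. Dendritic cell markers summed to 153 to 219.7 CPM in controls and 69.3 to 73.4 CPM with heme-albumin, and the 1 that passed, Bst2, is also an interferon gene (-1.37 ± 0.16). Platelet markers summed to 130.2 to 246 and 425 to 479 CPM, where Pf4, a chemokine that macrophages also make, rose (1.16 ± 0.32). Most of these counts were Pf4. Gp1bb of the same list fell 5.41-fold (adjusted p = 0.00713), with 19, 14 and 7 counts in controls and 3, 2 and 1 with heme-albumin. Pf4 did not pass without control replicate 2 or 3 or 200 µM replicate 3 (adjusted p = 0.0896, 0.0518 and 0.0544, with a range of 0.000292 to 0.0896 over the alternatives). Stromal and endothelial markers summed to 15.7 to 25.9 and 26.3 to 38.3 CPM, with Acta2, smooth muscle actin, higher (3.40 ± 0.33). Kdr of the same list was 3.26-fold lower. Whether these markers have a part in any result below was not tested.

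Heme-albumin replicate 2 stood apart from the other treated libraries. The chi-square of its counts per degree of freedom was 36.0 against replicate 1 and 22.7 against replicate 3, while replicates 1 and 3 differed by 8.52 and controls by 7.12 to 13.7. It was the highest of the 3 treated libraries for 1114 of the 1658 genes that rose (67.2%) and the lowest for 705 of the 1127 that fell (62.6%), so it lies further from the controls than its replicates. Results that depend on it are given below with and without it, and the reason for its position was not tested.

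In all, 1658 genes rose and 1127 fell, which is 14% and 9.48% of the genes tested, or 23.4% together. Of these, 710 rose and 350 fell by at least 2-fold, 299 and 125 by at least 4-fold, and 73 and 14 by at least 16-fold. Treated and control libraries did not overlap for 2774 of the 2785 genes called, against 6157 of all 11883 tested. The rises were seen in all 3 pairs of same-numbered libraries for 1656 of 1658 genes and the falls for 1125 of 1127. These genes were chosen by a test on the same libraries, so this agreement is no separate support. The share over all genes tested was not counted. The median change of all genes tested was 0.02, the value against which the medians of gene groups below are to be read. Without heme-albumin replicate 2, 1029 genes rose and 650 fell, and 1020 and 638 of those were also called with it. The split of calls was 59.5% higher with all 15 libraries in the model and 51.7% higher when only the 6 libraries compared were fitted, a setting that called 2304 genes higher and 2152 lower. Of the genes given below as not having passed, Abca1, Abcg1, Aco1, Adgre1, Alad, Asns, C1qa, C1qb, C1qc, Ccl2, Chil3, Csf1r, Ctsd, Flvcr1, Fos, Gpx1, Hspa5, Ifngr1, Il10, Lyz2, Mki67, Mthfd2, Nfe2l2, Phgdh, Shmt2, Spp1, Srebf2 and Vegfa passed with the replicate number as a block and only those 6 libraries (adjusted p of 2.61e-05 to 0.0456). Of these, Abca1, Alad, Asns, C1qa, C1qb, C1qc, Fos, Gpx1, Hspa5, Lyz2, Mki67, Nfe2l2, Phgdh, Shmt2, Spp1 and Srebf2 also passed with the 6 libraries alone.

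**Figure D1:**
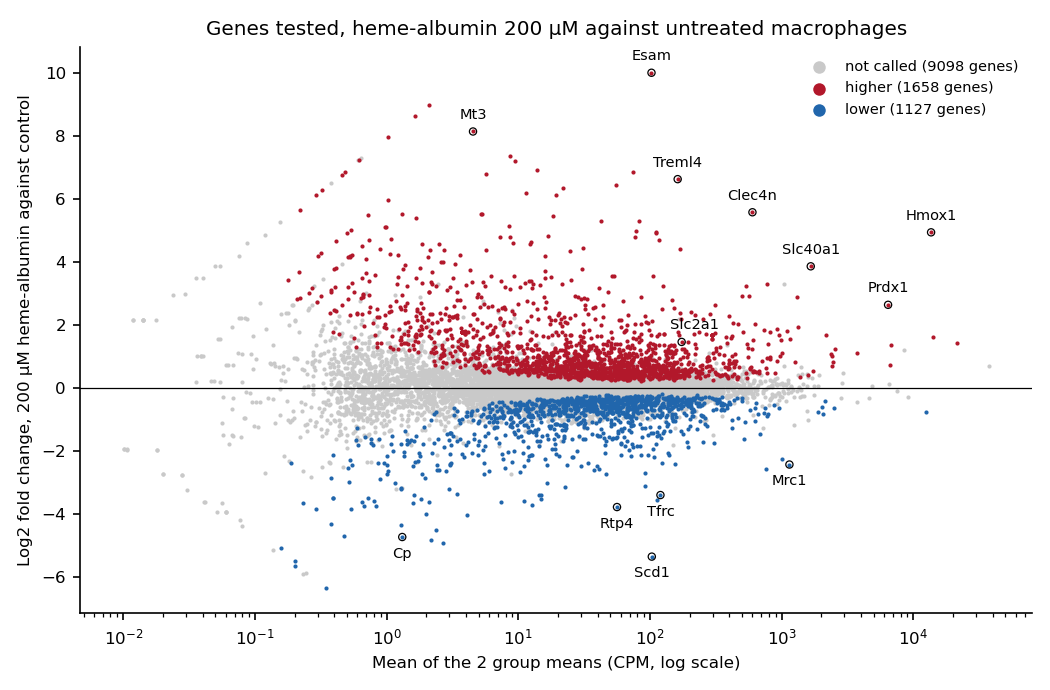
Log2 fold change of each of the 11883 genes tested (y) against the mean of both group means in CPM on a log scale (x). The 1658 genes called higher are red, the 1127 called lower blue and the others grey. Rises reach further than falls, with Esam at the top, and Hmox1 lies far from the other genes of high level.

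Genes for heme breakdown and export of iron rose strongly (positions of genes are on GRCm38). Hmox1, the enzyme that opens the heme ring (ENSMUSG00000005413, chromosome 8, 75093621 to 75100589), stood at 934, 622 and 1045 CPM in controls 1 to 3 and at 25566, 28875 and 24867 CPM with heme-albumin. The groups were far apart, and Hmox1 rose 30.5-fold (4.93 ± 0.30, adjusted p = 3.25e-07), from 0.0674 to 0.115% of all counts to 2.39 to 2.69%. Slc40a1, ferroportin, the iron exporter of the cell membrane (ENSMUSG00000025993, chromosome 1, 45908068 to 45926523), went from 240.2, 115 and 292 CPM to 2938, 2635 and 3768 CPM. Its lowest treated library was far above its highest control, and it rose 14.4-fold (3.85 ± 0.43, adjusted p = 3.34e-05).

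Of the 12 tested genes of heme breakdown and transport, 4 rose and 1 fell (median 0.33). Besides Hmox1, the rises were Blvrb, a biliverdin reductase, at 134, 153 and 163 CPM in controls and 381, 516 and 415 CPM with heme-albumin (1.54 ± 0.23), Slc48a1, which carries heme out of the phagolysosome (1.86 ± 0.22), and the porphyrin transporter Abcb6 (2.32 ± 0.11). Hmox2, the constitutive heme oxygenase, was the member that fell (-0.34 ± 0.10). Hmox2 did not pass without control replicate 2 or 200 µM replicate 1 or 2 or with no filter (adjusted p = 0.0806, 0.0683, 0.141 and 0.0532, with a range of 0.00357 to 0.141 over the alternatives). In the heme breakdown list 7 rose with both, 0 fell with no filter and 2 fell in DESeq2, with DESeq2's factors, with the 6 libraries alone, with the block or with both. The heme exporter Flvcr1 and the hemoglobin-haptoglobin receptor Cd163 did not pass, at 0.30 ± 0.20 and -0.31 ± 0.43. Of 9 tested enzymes and carriers of heme synthesis, Fech, which inserts iron into the ring, rose (0.55 ± 0.11), and Alas1, the first enzyme of the path, was at -0.26 ± 0.35 and did not pass. Alad, its second enzyme, was at 0.70 ± 0.25 with an adjusted p of 0.0549, and passed in DESeq2 (adjusted p = 0.0407) and with the 6 libraries alone, without the block (0.0022) and with it (0.00158).

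Among iron genes ferritin and ferroportin rose and the transferrin receptor fell. Of 18 tested, 6 rose and 3 fell. In the iron gene list 5 fell with the 6 libraries alone and 6 fell with both. The ferritin heavy chain Fth1 stood at 11213, 12068 and 11514 CPM in controls and 29638, 35473 and 28124 CPM with heme-albumin, and the light chain Ftl1 at 6406, 7253 and 7189.9 and 18707, 25751 and 19073 CPM. Both rose without overlap, by 1.42 ± 0.29 and 1.61 ± 0.23, although each has near-identical copies in the genome that make its counts uncertain. Slc11a1, which pumps iron out of the phagosome, rose (1.5 ± 0.19), as did the iron sensor Fbxl5 (0.85 ± 0.16) and the metal importer Slc39a14 (0.70 ± 0.14). Tfrc, the transferrin receptor that brings iron in, was read at 256, 161 and 241 CPM in controls and 23.5, 15.4 and 23.3 CPM with heme-albumin and fell 10.6-fold (-3.40 ± 0.27, adjusted p = 2.93e-06). Cp, ceruloplasmin, which oxidises iron as it leaves the cell, had 102 counts over the controls and 3 over the treated libraries, a ratio of 28.9-fold lower with a 95% counting interval of 9.61 to 142. The importer Slc39a8 fell as well (-1.21 ± 0.32). Slc39a8 did not pass without 200 µM replicate 2 (adjusted p = 0.073, with a range of 4.02e-05 to 0.073 over the alternatives). The iron-regulatory proteins Aco1 and Ireb2 were at -0.22 ± 0.11 and -0.19 ± 0.12 and did not pass.

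**Figure D2:**
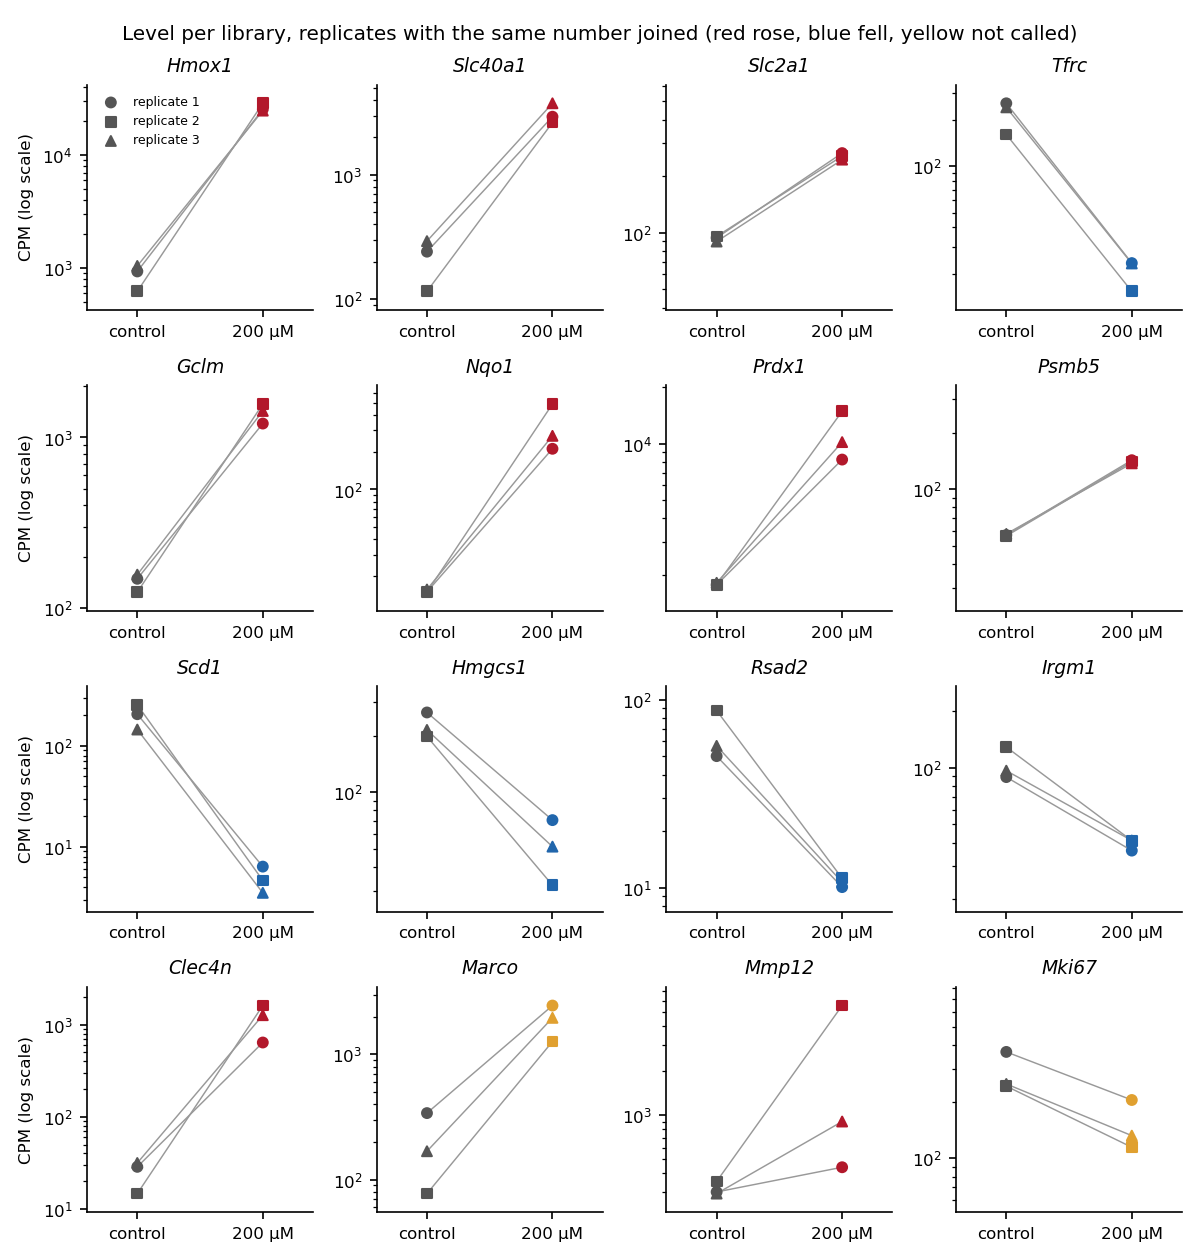
Level of 16 genes in each of the 6 libraries, in CPM on a log scale that differs between panels. Circles, squares and triangles are replicates 1, 2 and 3, lines join same-numbered libraries, and the treated points are red or blue where the gene rose or fell and yellow where it did not pass. Hmox1, Slc40a1 and Slc2a1 rise in all 3 replicates, and Mmp12 shows replicate 2 well above the others.

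Transcription factors tied to heme changed in both directions. Of 18 tested, 7 rose and 3 fell, while 4 rose without control replicate 2 or 200 µM replicate 2 and 1 fell without 200 µM replicate 2. Spic, the factor that iron-recycling macrophages of the splenic red pulp require, was at 1.15, 0.363 and 0.645 CPM in controls and 16.6, 16 and 20.5 CPM with heme-albumin (4.59 ± 0.99). Maf, a factor of macrophage differentiation, fell (-1.27 ± 0.35), and the nuclear receptors Ppard (1.39 ± 0.21) and Nr1d1, which binds heme (1.32 ± 0.26), rose. Epas1, the hypoxia factor HIF2α, was at 13.8, 10.5 and 13.7 CPM in controls and 3.36, 2.11 and 2.33 CPM with heme-albumin and fell (-2.26 ± 0.31). Transcripts of the NRF2 gene Nfe2l2 and of its inhibitor Keap1 were at -0.38 ± 0.19 and 0.21 ± 0.13 and did not pass, while the repressor gene Bach1 rose (0.44 ± 0.13). Bach1 did not pass without control replicate 1, 2 or 3 or 200 µM replicate 2 or 3 (adjusted p = 0.0781, 0.088, 0.0778, 0.0904 and 0.0716, with a range of 0.0042 to 0.0904 over the alternatives). Maf did not pass without 200 µM replicate 2 (adjusted p = 0.072, with a range of 0.00047 to 0.072 over the alternatives). Among the small MAF partners Mafg rose (0.41 ± 0.14), and Nfe2l1, a relative of NRF2 that drives proteasome genes, fell (-0.25 ± 0.08). Mafg did not pass without control replicate 1 or 2 or 200 µM replicate 1, 2 or 3 or with the DESeq2 size factors or with no filter (adjusted p = 0.171, 0.178, 0.058, 0.162, 0.0942, 0.0608 and 0.0583, with a range of 0.00852 to 0.178 over the alternatives). Nfe2l1 did not pass without control replicate 1 or 3 or 200 µM replicate 1, 2 or 3 or with no filter (adjusted p = 0.0923, 0.154, 0.112, 0.114, 0.104 and 0.103, with a range of 0.00446 to 0.154 over the alternatives).

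Of 12 red pulp macrophage genes, 5 rose and 1 fell, Hmox1, Slc40a1 and Spic among the rises. Treml4, a receptor of red pulp macrophages, was at 4.03, 1.81 and 4.19 CPM in controls and 346, 252 and 367 CPM with heme-albumin (6.62 ± 0.69). Cd5l, a secreted scavenger protein, rose (2.34 ± 0.44), and Vcam1, an adhesion molecule, fell (-3.38 ± 0.66). Adgre1, which encodes F4/80, and Siglec1 were at -0.30 ± 0.27 and -0.43 ± 0.45 and did not pass. In the red pulp list 2 fell with both.

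Genes for glutathione, thioredoxin and quinone detoxification rose as groups. Of 23 tested glutathione and cystine genes, 18 rose and 1 fell (median 1.77), and of 21 thioredoxin and quinone genes, 17 rose and 0 fell (median 1.69). Without replicate 2 the numbers that rose were 14 and 16. The synthesis of glutathione was represented by Gclm, the modifier subunit of its first enzyme, at 148, 124 and 156 CPM in controls and 1207, 1571 and 1430.4 CPM with heme-albumin (3.30 ± 0.39). The catalytic subunit Gclc (2.36 ± 0.38), the second enzyme Gss (1.57 ± 0.31) and the reductase Gsr (2.19 ± 0.34) rose too. Slc7a11, the cystine importer, was at 6.78, 2.9 and 4.84 and 64.8, 285 and 108 CPM (4.98 ± 1.02), with replicate 2 the highest. Transferases rose across classes, from Mgst2 at 1.66, 0.787 and 1.5 CPM in controls and 119.9, 190.2 and 136 CPM with heme-albumin (6.84 ± 0.32) to Gsta3 (4.95 ± 0.73), Gstm1 (2.90 ± 0.37) and Gsto1 (0.69 ± 0.18). Gsto1 did not pass without control replicate 3 or 200 µM replicate 2 (adjusted p = 0.0525 and 0.054, with a range of 0.000199 to 0.054 over the alternatives). Members of the alpha and mu classes resemble each other, so their counts are uncertain. The export pump Abcc1, which carries glutathione conjugates, rose (1.77 ± 0.17). Glutathione peroxidases did not share this pattern: Gpx1 and Gpx4 were at -0.36 ± 0.24 and -0.03 ± 0.10 and did not pass, and the secreted Gpx3 fell (-1.74 ± 0.45). Gpx3 did not pass without 200 µM replicate 2 (adjusted p = 0.0592, with a range of 0.000415 to 0.0592 over the alternatives). In the glutathione list 2 fell in DESeq2 and 3 fell with the 6 libraries alone or with both.

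Nqo1, which reduces quinones by 2 electrons, stood at 15, 14.9 and 15.7 CPM in controls and 213, 487 and 270.0 CPM with heme-albumin (4.41 ± 0.39). The peroxiredoxin Prdx1 was at 1772, 1776 and 1818 CPM and 8221, 14847 and 10179 CPM (2.63 ± 0.41), and Sod1, superoxide dismutase of the cytosol, at 145, 171 and 139.5 CPM and 428, 476 and 417 CPM (1.53 ± 0.10). In none of these 3 genes did the groups overlap, and replicate 2 was the highest treated library in each. Catalase (Cat) (1.81 ± 0.23), thioredoxin reductase Txnrd1 (1.37 ± 0.25), sulfiredoxin Srxn1 (2.07 ± 0.38) and the autophagy adaptor Sqstm1 (1.92 ± 0.26) rose as well. Sod2 of the mitochondrion was at 0.22 ± 0.49 and did not pass. Of 14 genes of NADPH supply, 6 rose and 0 fell, while 1 fell without control replicate 2. In the NADPH list 1 fell with upper-quartile factors or with the block, 2 fell in DESeq2 or with DESeq2's factors, 4 fell with the 6 libraries alone and 5 fell with both. The rises were led by malic enzyme Me1 (2.15 ± 0.18), Taldo1 (1.84 ± 0.24) and Pgd (1.54 ± 0.17) and including G6pdx, the first step of the pentose phosphate path (0.96 ± 0.11). Shmt2 and Mthfd2, enzymes of the mitochondrial folate path, were at -0.57 ± 0.34 and -0.32 ± 0.23 and did not pass.

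The antioxidant response element, the sequence that NRF2 and BACH1 bind with small MAF proteins, was searched as TGACNNNGC on both strands in the 250 bases before and 50 bases after gene starts. It stood in 18% of the 539 promoters of genes that rose at least 2-fold, in 16.9% of the 255 that fell and in 15% of all 9274. By list it stood in 16.7% of glutathione, 25% of thioredoxin and quinone, 15.4% of NADPH and 16% of proteasome promoters. The share was 14.3% in the iron list and 40% (4 of 10) in the heme breakdown list. Of the risen members of the antioxidant, NADPH, heme, iron and proteasome lists with such letters before the start, the 5 of smallest p are shown with the match in capitals (RefSeq, GRCm38.p6, each written 5′ to 3′ in the direction of its gene).
Sod1: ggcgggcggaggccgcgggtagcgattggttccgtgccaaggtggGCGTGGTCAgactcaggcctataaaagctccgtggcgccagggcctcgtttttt
Psmb5: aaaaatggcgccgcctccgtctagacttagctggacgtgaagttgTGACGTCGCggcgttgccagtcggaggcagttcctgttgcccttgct
G6pdx: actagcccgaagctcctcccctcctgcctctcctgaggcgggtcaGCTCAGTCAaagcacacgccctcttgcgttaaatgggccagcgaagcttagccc
Gclm: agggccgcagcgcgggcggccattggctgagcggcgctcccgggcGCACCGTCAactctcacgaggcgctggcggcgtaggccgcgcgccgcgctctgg
Gsta3: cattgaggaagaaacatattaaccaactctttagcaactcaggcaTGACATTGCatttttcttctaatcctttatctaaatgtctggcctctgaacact
These stretches are chr16:90220661-90220759 on the plus strand, chr14:54617996-54618087 on the minus strand, chrX:74428884-74428982 on the minus strand, chr3:122245378-122245476 on the plus strand and chr1:21240419-21240517 on the plus strand. In Psmb5 and Gsta3 the letters read along the gene and in the other 3 on the opposite strand. Psmb5 was at 57.1, 56.4 and 57.8 CPM in controls and 143, 140.3 and 137 CPM with heme-albumin (1.29 ± 0.14), and G6pdx at 376, 372 and 389.6 and 740.5, 731 and 743 CPM. A match is a description of the sequence and shows no binding.

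**Figure D3:**
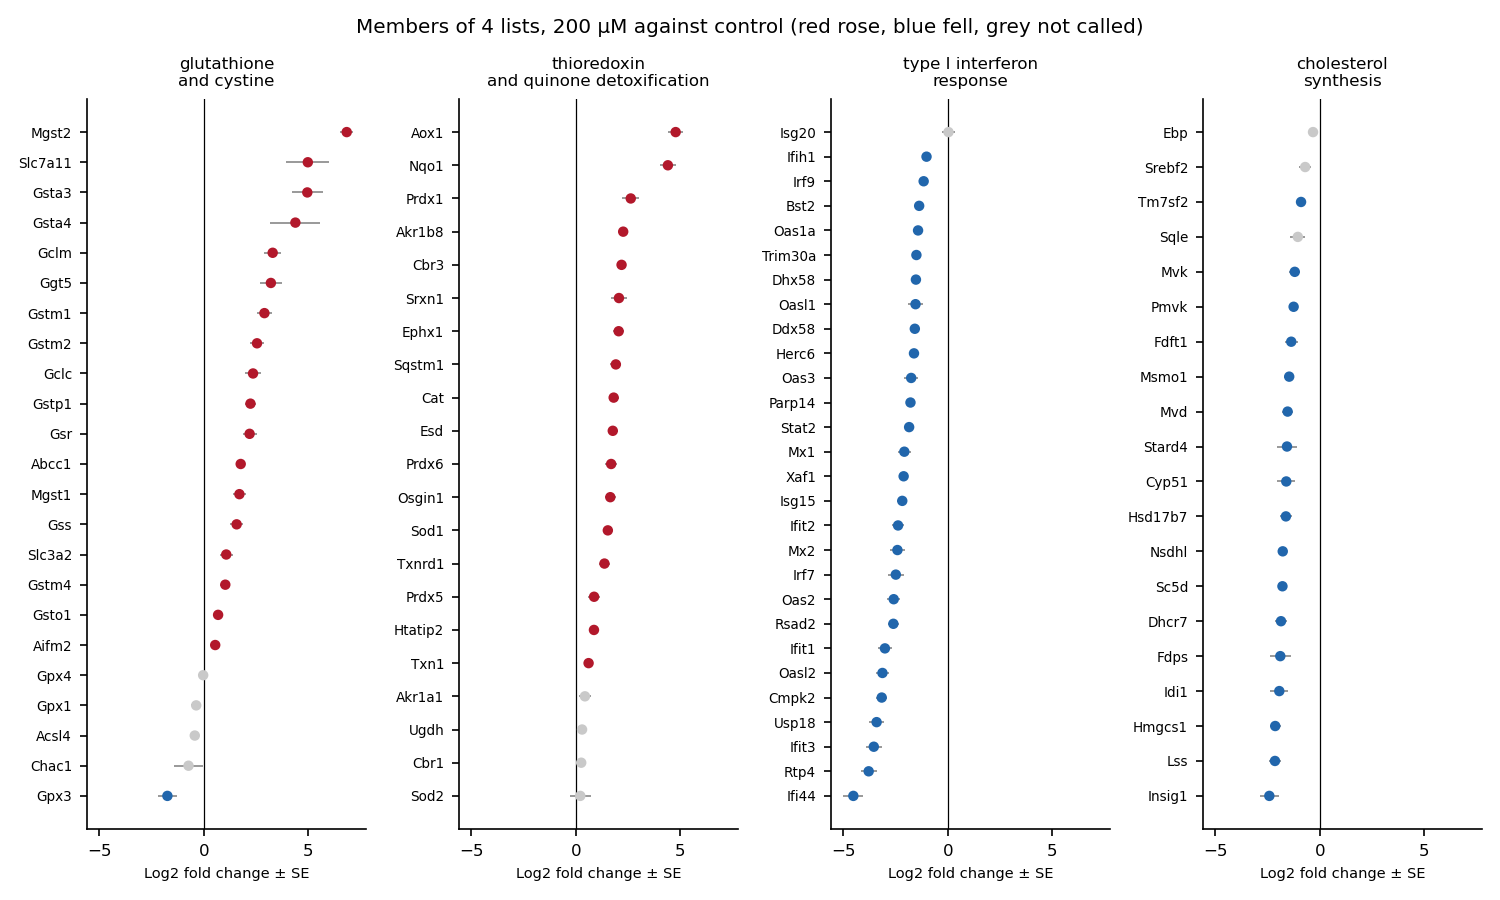
Log2 fold change ± SE of tested members of 4 gene lists, with heme-albumin 200 µM against control. Members that rose are red, members that fell blue and members that did not pass grey. The antioxidant lists lie almost wholly to the right of 0 and the type I interferon and cholesterol lists to the left.

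The proteasome, which degrades proteins tagged with ubiquitin, rose in most of its subunits by small amounts. Of 31 constitutive subunits, 28 rose and 1 fell (median 0.48), and the number that rose was 21 to 28 when a library was left out. Of the core, Psma5 (1.18 ± 0.10) and Psma7 (0.92 ± 0.08) rose with Psmb5, and of the regulatory cap Psmd11 (1.03 ± 0.11) and Psmd4 (0.72 ± 0.08). Psmd8 was the subunit that fell (-0.37 ± 0.11). Psmd8 did not pass without control replicate 2 or 3 or 200 µM replicate 1 or 3 (adjusted p = 0.0666, 0.0515, 0.0829 and 0.0666, with a range of 0.00188 to 0.0829 over the alternatives). Of 14 tested heat shock chaperones and their factors, 7 rose and 0 fell. In the chaperone list 1 fell with both. Bag3, a co-chaperone of selective autophagy, was at 34.8, 37 and 33.5 CPM in controls and 81.5, 92.9 and 72 CPM with heme-albumin (1.23 ± 0.13), and Dnajb4 (2.14 ± 0.20) and Hsph1 (1.11 ± 0.17) rose too. The abundant constitutive chaperones Hspa8 and Hsp90aa1 were at -0.12 ± 0.11 and 0.08 ± 0.21 and did not pass.

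Fewer members of other stress lists passed in this test. Of 19 integrated stress response genes, 1 rose and 3 fell (median -0.61), while 1 fell without 200 µM replicate 1 or 2. In the integrated stress response list 2 rose with both, 5 fell in DESeq2 or with the block, 10 fell with the 6 libraries alone and 11 fell with both. Cebpb rose (1.44 ± 0.32), Ddit3, which encodes CHOP, fell (-0.92 ± 0.26), and the amino acid genes Asns and Phgdh were at -0.64 ± 0.44 and -1.36 ± 0.77 and did not pass. Ddit3 did not pass without control replicate 1 or 200 µM replicate 1 or 3 (adjusted p = 0.067, 0.073 and 0.0753, with a range of 0.00282 to 0.0753 over the alternatives). Of 18 unfolded protein response genes, Syvn1 (0.53 ± 0.16) and Sec61b (0.53 ± 0.17) rose and Herpud1 fell (-0.88 ± 0.29), and when a library was left out 0 or 1 of these rose and 0 fell in edgeR. In the unfolded protein response list 2 fell with the 6 libraries alone and 3 fell with both. The chaperone Hspa5, also called BiP, was at -0.39 ± 0.23 and did not pass. Of 10 metallothioneins and zinc transporters, 4 rose, among them the zinc sensor Mtf1 (0.38 ± 0.09), while 2 rose without 200 µM replicate 2. In the metallothionein list 1 fell in DESeq2, with DESeq2's factors, with upper-quartile factors, with the 6 libraries alone, with the block or with both. Mtf1 did not pass without control replicate 2 or 200 µM replicate 2 (adjusted p = 0.0622 and 0.0525, with a range of 0.0074 to 0.0622 over the alternatives). Mt1 and Mt2, the usual metal-responsive metallothioneins, were at 0.28 ± 0.16 and 0.22 ± 0.25 and did not pass, while Mt3 had 1 count over the controls and 317 over the treated libraries, a 373-fold ratio with a counting interval of 66.5 to 14780. Of 18 autophagy genes, 3 rose and 1 fell, with Gabarapl1 (1.36 ± 0.21), Gabarapl2 (0.59 ± 0.13) and Wipi2 (0.41 ± 0.09) higher and the adaptor Optn lower (-1.53 ± 0.30). In the autophagy list 7 rose with the 6 libraries alone, 8 rose with both and 2 fell in DESeq2, with the 6 libraries alone or with both.

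Lysosomal genes split. Of 33 tested, 5 rose and 7 fell, while 3 rose without control replicate 1 or 200 µM replicate 2 and 3 fell without control replicate 3 or 200 µM replicate 2 and 4 fell without control replicate 1 or 200 µM replicate 1 or 3. In the lysosomal list 8 rose with the 6 libraries alone, 9 rose with both and 13 fell with both. The cathepsins went in different directions: Ctsl was at 1638, 1598 and 1565 CPM in controls and 3291, 3168 and 3188 CPM with heme-albumin (1.01 ± 0.14), Ctsb at 14899.9, 15759 and 16442 and 8914, 8848 and 9853 CPM (-0.77 ± 0.16), and Ctsd did not pass (-0.28 ± 0.21). Hexa, a hexosaminidase subunit, fell (-0.65 ± 0.12), the glucosidase Gaa rose (0.87 ± 0.16), and the lysosomal factor Tfeb rose (1.11 ± 0.29). Tfeb did not pass without control replicate 1 or 200 µM replicate 2 (adjusted p = 0.063 and 0.0622, with a range of 0.000128 to 0.063 over the alternatives).

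The glucose transporter gene Slc2a1 and part of the glycolysis genes rose. Slc2a1, which encodes GLUT1 (ENSMUSG00000028645, chromosome 4, 119108711 to 119137983), was at 94, 95.6 and 89.8 CPM in controls and 265, 256 and 245 CPM with heme-albumin. Its treated libraries lay within a narrow range above all controls, and it rose 2.74-fold (1.45 ± 0.14, adjusted p = 1.06e-05). Exons of the antisense gene Gm12868 overlap it, so some counts may be of that gene. Of 24 genes of glucose transport and glycolysis, 9 rose and 0 fell (median 0.34), while 5 rose without control replicate 2. In the glycolysis list 14 rose with the 6 libraries alone, 16 rose with both and 1 fell with the 6 libraries alone, with the block or with both. Pkm, pyruvate kinase, was at 2131, 2615 and 2300.1 and 5047, 5339.6 and 4813 CPM (1.11 ± 0.14), Gpi1 (0.84 ± 0.17) and Eno1 (0.90 ± 0.19) rose, and the lactate exporter Slc16a3 rose (1.12 ± 0.37). Slc16a3 did not pass without control replicate 1, 2 or 3 or 200 µM replicate 1, 2 or 3 (adjusted p = 0.133, 0.0686, 0.137, 0.11, 0.0953 and 0.0705, with a range of 6.3e-05 to 0.137 over the alternatives). Ldha, lactate dehydrogenase, and Tpi1 were at -0.03 ± 0.23 and 0.08 ± 0.20 and did not pass. Pcx, pyruvate carboxylase, which feeds the TCA cycle, was at 8.7, 8.96 and 9.03 CPM in controls and 34.5, 89.7 and 41.7 CPM with heme-albumin (2.64 ± 0.32), the largest change among 20 TCA cycle genes, of which 3 rose and 1 fell, while 1 rose without control replicate 2 and 0 fell without control replicate 1 or 3 or 200 µM replicate 2 or 3. In the TCA cycle list 5 rose with the 5 CPM filter, 0 fell with no filter and 3 fell with both. Of 26 oxidative phosphorylation genes 4 rose and 0 fell, namely Ndufa4 (0.48 ± 0.09), Ndufv1 (0.45 ± 0.09), Cyc1 (0.27 ± 0.08) and Cox6c (0.31 ± 0.08), while 2 rose without control replicate 1 or 3. Cyc1 did not pass without control replicate 1, 2 or 3 or 200 µM replicate 2 or 3 or with no filter (adjusted p = 0.101, 0.0548, 0.105, 0.123, 0.0624 and 0.0617, with a range of 0.0126 to 0.123 over the alternatives). Cox6c did not pass without control replicate 1 or 3 (adjusted p = 0.0672 and 0.0805, with a range of 0.00343 to 0.0805 over the alternatives). Of 17 hypoxia response genes 4 rose and 0 fell, Slc2a1, Hk2, Mxi1 and Ero1l, while 1 rose without 200 µM replicate 2 and 2 rose without control replicate 1, 2 or 3 or 200 µM replicate 1. In the hypoxia list 7 rose with the 6 libraries alone, 8 rose with both and 1 fell with both. Hk2 did not pass without control replicate 2 or 200 µM replicate 2 (adjusted p = 0.0583 and 0.0508, with a range of 0.00334 to 0.0583 over the alternatives). Mxi1 did not pass without control replicate 1 or 3 or 200 µM replicate 1 or 2 (adjusted p = 0.154, 0.104, 0.0579 and 0.139, with a range of 0.00106 to 0.154 over the alternatives). Ero1l did not pass without control replicate 1, 2 or 3 or 200 µM replicate 1, 2 or 3 or with the DESeq2 size factors or with the upper-quartile factors (adjusted p = 0.0559, 0.137, 0.154, 0.0617, 0.157, 0.0533, 0.0572 and 0.0558, with a range of 0.00591 to 0.157 over the alternatives). Vegfa, a target of hypoxia factors, was at -0.73 ± 0.53 and did not pass.

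Sterol and fatty acid synthesis fell. Of 23 cholesterol synthesis genes, 0 rose and 19 fell (median -1.54), and 14 fell without replicate 2. Hmgcs1, an early enzyme of the path, was at 266, 198 and 214 CPM in controls and 71.1, 32 and 51.4 CPM with heme-albumin (-2.13 ± 0.26). Lss, which closes the sterol rings, was at 154, 116 and 145 and 41.3, 22.2 and 30.4 CPM (-2.14 ± 0.30), and Dhcr7, a late enzyme, at 109.9, 86.7 and 109 and 36.5, 21 and 26.7 CPM (-1.85 ± 0.28). No treated library of these 3 genes reached the lowest control, and replicate 2 was the lowest in each. Insig1, a partner of the sterol sensor, fell as well (-2.41 ± 0.46), as did Nsdhl (-1.77 ± 0.18) and Sc5d (-1.79 ± 0.19) of the late steps. Srebf2, which encodes the factor SREBP2, was at -0.70 ± 0.29 and did not pass.

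Of 14 fatty acid genes, 0 rose and 8 fell (median -0.93), while 5 fell without control replicate 1 or 2 or 200 µM replicate 2 or 3. Scd1, the desaturase that makes monounsaturated fatty acids (ENSMUSG00000037071, chromosome 19, 44394455 to 44407879), was at 206, 255 and 145 CPM in controls and 6.37, 4.65 and 3.5 CPM with heme-albumin and fell 41-fold (-5.36 ± 0.66, adjusted p = 8.08e-05). Its relative Scd2 was at 1422, 1269 and 1251 and 256, 191 and 212 CPM (-2.58 ± 0.61), and Fads1 (-0.86 ± 0.19), Fads2 (-2.17 ± 0.71) and Acly (-0.88 ± 0.15) fell. Fads2 did not pass without control replicate 1, 2 or 3 or 200 µM replicate 1, 2 or 3 or in DESeq2 (adjusted p = 0.0908, 0.0756, 0.0862, 0.0565, 0.159, 0.106 and 0.0658, with a range of 5.11e-05 to 0.159 over the alternatives). Srebf1, which encodes SREBP1, was at -0.09 ± 0.22 and did not pass. The sterol response element, searched as TCACNCCAC on both strands, stood in 1.09% of all promoters and in 1 of 16 of the cholesterol list, Hmgcs1, shown with the match in capitals (RefSeq, GRCm38.p6, chr13:119690169-119690267 on the plus strand).
Hmgcs1: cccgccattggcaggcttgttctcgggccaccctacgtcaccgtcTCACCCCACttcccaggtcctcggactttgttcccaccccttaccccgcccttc

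Lipid uptake genes rose. Of 14 uptake and storage genes, 7 rose and 1 fell, the same numbers as without replicate 2. Cd36, a receptor for fatty acids and oxidised lipoproteins, was at 1081, 996 and 1026 CPM in controls and 2512, 4308 and 3182 CPM with heme-albumin (1.69 ± 0.28). Cpt1a, which brings fatty acids into mitochondria for oxidation (1.07 ± 0.14), Plin2, the coat of lipid droplets (1.01 ± 0.20), and Angptl4, a lipase inhibitor (1.99 ± 0.30), rose, and the fatty acid binding protein Fabp5 fell (-1.76 ± 0.41). In the lipid uptake list 2 fell with both. Of 12 efflux genes driven by LXR, the oxysterol receptor, 1 passed, Lpl, lipoprotein lipase, which was at 3775, 4266 and 3506 CPM in controls and 9864, 10246 and 9221 CPM with heme-albumin (1.34 ± 0.18). The count was 2 without 200 µM replicate 3. In the efflux list 2 rose in DESeq2 or with the 6 libraries alone, 3 rose with the block or with both, 1 fell in DESeq2 or with DESeq2's factors and 3 fell with the 6 libraries alone or with both. Rgcc was among those that rose with the block (adjusted p = 0.0256). The cholesterol pumps Abca1 and Abcg1 were at -0.59 ± 0.28 and 0.37 ± 0.31 and did not pass.

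The type I interferon response fell almost whole. Of 29 tested genes, 0 rose and 28 fell (median -2.08), the same numbers without replicate 2 and under each of the other settings tried, DESeq2 and the replicate block included. The exception was Isg20 at 0.03 ± 0.29. Rsad2, viperin, which blocks viral replication, was at 50.2, 87.6 and 56.9 CPM in controls and 10.1, 11.2 and 10.7 CPM with heme-albumin (-2.60 ± 0.27). Oasl2, of the oligoadenylate synthetase family, was at 135, 214 and 144 and 20.9, 19.2 and 16.2 CPM (-3.13 ± 0.30), and Rtp4 at 88.3, 138 and 87.9 and 9.88, 7.18 and 5.52 CPM (-3.79 ± 0.38). Control replicate 2 was the highest control in all 3, and no treated library reached the lowest control. Of the signalling factors, Stat2 (-1.85 ± 0.13), Irf7 (-2.49 ± 0.39) and Irf9 (-1.15 ± 0.13) fell, while the receptor chains Ifnar1 and Ifnar2 were at -0.14 ± 0.15 and -0.03 ± 0.13 and did not pass. The cytosolic RNA sensors Ddx58 (-1.58 ± 0.17), Ifih1 (-1.02 ± 0.14) and Dhx58 (-1.52 ± 0.11) fell. Ifnb1, the gene of interferon β itself, was too low to be tested.

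Interferon response letters were searched as GAAANNGAA on both strands in the same windows. They stood in 7.48% of all 9274 promoters, in 6.86% of those that rose at least 2-fold and in 23.1% of those that fell at least 2-fold (59 of 255). In the type I list 12 of 21 promoters held them, and in the IFN-γ list 11 of 19. The 5 genes of smallest p in the type I list with a match before the start are shown, with the matches in capitals (RefSeq, GRCm38.p6).
Stat2: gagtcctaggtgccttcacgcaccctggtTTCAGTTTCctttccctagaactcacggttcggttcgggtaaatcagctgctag
Trim30a: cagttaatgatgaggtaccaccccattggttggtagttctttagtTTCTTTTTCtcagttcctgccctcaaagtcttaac
Oas1a: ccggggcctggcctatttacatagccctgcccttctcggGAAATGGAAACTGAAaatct
Rsad2: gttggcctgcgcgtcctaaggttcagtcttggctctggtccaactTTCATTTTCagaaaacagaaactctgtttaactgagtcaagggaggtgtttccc
Ifit3: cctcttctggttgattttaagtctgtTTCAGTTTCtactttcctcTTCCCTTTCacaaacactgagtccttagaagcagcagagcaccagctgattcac
The stretches are chr10:128270248-128270330 on the plus strand, chr7:104465194-104465273 on the minus strand, chr5:120907526-120907584 on the minus strand, chr12:26456518-26456616 on the minus strand and chr19:34583382-34583480 on the plus strand. Oas1a holds 2 overlapping matches along the gene and the stretch shown of Ifit3 holds 2, on the opposite strand, of the 3 that stand before its start. Oas1a was at 70.2, 100.4 and 77.9 CPM in controls and 29.8, 34.6 and 28.4 CPM with heme-albumin (-1.42 ± 0.14), and Ifit3 at 18.3, 39.9 and 23.9 and 2.86, 1.44 and 2.76 CPM (-3.54 ± 0.37). The letters describe these promoters and show no binding.

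Genes that respond to IFN-γ fell in part. Of 26 tested, 3 rose and 11 fell, and 11 fell in each fit that left out a library, while 0 rose without control replicate 1 or 3 or 200 µM replicate 2 and 1 rose without control replicate 2 or 200 µM replicate 3. In the IFN-γ list 1 rose with DESeq2's factors or with no filter. Irgm1, a GTPase of cell-autonomous defence, was at 89.2, 129 and 96.5 CPM in controls and 36.3, 41 and 41.1 CPM with heme-albumin (-1.41 ± 0.19), and Gbp3 (-1.96 ± 0.25), Gbp7 (-1.56 ± 0.21), Irf1 (-0.81 ± 0.13) and the chemokine Cxcl10 (-2.30 ± 0.39) fell. Guanylate-binding proteins resemble each other, so counts of single members are uncertain. Socs3, a feedback inhibitor of cytokine receptors, rose (1.47 ± 0.41). Socs3 did not pass without control replicate 1 or 3 or 200 µM replicate 2 (adjusted p = 0.0932, 0.0687 and 0.0944, with a range of 0.000432 to 0.0944 over the alternatives). The receptor chains Ifngr1 and Ifngr2 were at -0.34 ± 0.17 and 0.17 ± 0.18 and did not pass.

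Of 19 MHC class I genes, 1 rose and 11 fell (median -0.40), while 0 rose without control replicate 1 or 3 or 200 µM replicate 2 and 7 fell without control replicate 2 or 200 µM replicate 1 or 2. B2m, the light chain of class I molecules, was at 2099.7, 2789 and 2216 CPM in controls and 1221, 1525 and 1388 CPM with heme-albumin (-0.78 ± 0.22), and the peptide transporter gene Tap1 fell (-0.72 ± 0.17). B2m did not pass without control replicate 2 or 200 µM replicate 1 or 3 (adjusted p = 0.0687, 0.0714 and 0.0515, with a range of 0.000136 to 0.0714 over the alternatives). Of the 11 class II genes, 2 rose and 2 fell, while 1 rose without control replicate 1 and 0 fell without control replicate 1 and 1 fell without 200 µM replicate 3. The class II chain H2-Aa was at 22.6, 17.6 and 11.7 and 8.66, 6.59 and 4.14 CPM (-1.41 ± 0.36), and the peptide-exchange subunit H2-DMa rose (0.98 ± 0.20). H2-Aa did not pass without control replicate 1 or 200 µM replicate 3 (adjusted p = 0.0607 and 0.0548, with a range of 3.3e-05 to 0.0607 over the alternatives).

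Among innate receptors Clec4n stood out by the size of its rise. Of 20 pattern recognition receptors, 3 rose and 3 fell, while 1 rose without control replicate 1 or 2. In the pattern recognition list 5 rose with the 6 libraries alone or with both. Clec4n, which encodes dectin-2, a receptor for fungal mannans, was at 28.6, 14.6 and 31.5 CPM in controls and 641, 1617 and 1269.8 CPM with heme-albumin and rose 47.4-fold (5.57 ± 0.73). Tlr1 (-1.45 ± 0.18) and Tlr3, the receptor for double-stranded RNA (-0.63 ± 0.15), fell, and Tlr2 was at -0.17 ± 0.34 and did not pass. Of 10 inflammatory cytokine genes tested, Il18 (0.86 ± 0.14) and Il1f9 rose and 1 fell, Tnfsf15, with 28 counts over the controls and 3 over the treated libraries (7.93-fold lower, counting interval 2.45 to 40.8). Tnfsf15 did not pass without control replicate 1 or 200 µM replicate 1 (adjusted p = 0.0934 and 0.0709, with a range of 0.0139 to 0.0934 over the alternatives). Without 200 µM replicate 2, 2 cytokine genes fell, Csf1 among them (adjusted p = 0.0102). In the cytokine list 0 fell with the 5 CPM filter and 2 fell with the block. Tnf, a cytokine of acute inflammation, was at 129, 116 and 121 CPM in controls and 100.3, 118 and 126 CPM with heme-albumin and did not pass (-0.09 ± 0.12), and Il6, Il12b and Ifnb1 were among the 8 members too low to be tested. Of 21 chemokine genes 1 rose and 3 fell, while 0 rose without control replicate 2 or 3 or 200 µM replicate 3. In the chemokine list 2 rose with both, 5 fell in DESeq2, 7 fell with the 6 libraries alone and 9 fell with both. Ccl4 fell (-1.07 ± 0.24), Ccl12 was at 28.4, 21.4 and 21.6 and 2.29, 0.845 and 2.23 CPM (-3.73 ± 0.89), and Ccl2 was at -0.47 ± 0.67 and did not pass. Of 19 anti-inflammatory mediators, 2 rose and 3 fell, while 0 rose without control replicate 2 or 200 µM replicate 2 and 1 rose without control replicate 1 or 3 or 200 µM replicate 3. In the anti-inflammatory list 5 rose with both and 5 fell with both. Il10 was at 0.77 ± 0.50 and did not pass. The glucocorticoid-responsive gene Tsc22d3 fell (-1.13 ± 0.17), and the phosphatase gene Dusp1 rose (1.33 ± 0.40). Dusp1 did not pass without control replicate 1, 2 or 3 or 200 µM replicate 2 or 3 (adjusted p = 0.109, 0.0895, 0.0519, 0.126 and 0.0557, with a range of 0.000246 to 0.126 over the alternatives). Nfkbia, an inhibitor of NF-κB, was the other rise (0.93 ± 0.26) and did not pass without control replicate 2 or 3 or 200 µM replicate 2 (adjusted p = 0.065, 0.0781 and 0.0728, with a range of 0.00015 to 0.0781 over the alternatives).

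Genes of lipid mediators rose. Of 17 prostaglandin and leukotriene genes, 11 rose and 1 fell (median 0.63), while 6 rose without 200 µM replicate 2 and 7 rose without control replicate 1 or 3 or 200 µM replicate 3. In the lipid mediator list 2 fell with both. Ptgs2, the inducible cyclooxygenase, was at 1.28, 0.847 and 0.752 CPM in controls and 13.4, 41.5 and 15.8 CPM with heme-albumin (4.57 ± 0.62), and the phospholipase Pla2g4a, which frees arachidonic acid, at 89.9, 99.7 and 82 and 159, 189 and 189 CPM (0.98 ± 0.13). Ptger2, a receptor of prostaglandin E2, rose (2.81 ± 0.39), as did Ptgr1, which acts on prostaglandins and leukotriene B4 (2.61 ± 0.23), and Alox5ap, the partner of 5-lipoxygenase (0.94 ± 0.14). Hpgds, the synthase of prostaglandin D2, was the member that fell, at 235, 253 and 263 and 99.1, 76.1 and 115 CPM (-1.37 ± 0.17). Tbxas1, thromboxane synthase, was at 0.07 ± 0.18 and did not pass.

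Single surface receptors and genes of alternative activation rose or fell. Of the alternative activation list 21.1% was called, against 23.4% of all genes tested. Mrc1, the mannose receptor CD206 that marks alternative activation, was at 2182.1, 1655 and 1968 CPM in controls and 437, 138 and 498 CPM with heme-albumin (-2.44 ± 0.60), while Clec10a, another lectin of that state, rose (1.36 ± 0.31), and Chil3 was at -1.47 ± 1.20 and did not pass. Arg1, arginase 1, was at 2.3, 0.787 and 0.752 CPM in controls and 0.286, 0.338 and 0.106 CPM with heme-albumin (-2.35 ± 0.87, adjusted p = 0.0672) and passed only where its p was 0.014 with the replicate number as a block, 0.0119 in DESeq2 or, with the 6 libraries alone, 0.0165 without the block and 0.00533 with it. Of the 19 genes of that list 3 rose and 1 fell, with Cdh1, E-cadherin, higher (3.90 ± 0.36). In the alternative activation list 5 rose with the 6 libraries alone or with both, 2 fell in DESeq2, with the 6 libraries alone or with the block and 3 fell with both. Of 23 scavenger and phagocytic receptors 5 rose and 5 fell, while 3 rose without control replicate 1 and 2 fell without 200 µM replicate 2 and 3 fell without control replicate 3 or 200 µM replicate 1. In the scavenger receptor list 8 rose with the 6 libraries alone or with both. Msr1, scavenger receptor A, was at 595, 498 and 548 and 1038, 939 and 1239 CPM (0.97 ± 0.19), and Gas6, a bridge to apoptotic cells, at 811, 1001 and 1211 and 387, 213 and 503 CPM (-1.45 ± 0.40). Gas6 did not pass without control replicate 3 or 200 µM replicate 1 or 2 (adjusted p = 0.0614, 0.0503 and 0.0876, with a range of 0.000262 to 0.0876 over the alternatives). Marco was at 340.0, 77.4 and 169 CPM in controls and 2455, 1267 and 1958 CPM with heme-albumin, higher in all 3 replicates, yet it did not pass (3.28 ± 1.24, adjusted p = 0.0722). Its adjusted p was 0.0224 with the replicate number as a block, 0.0353 in DESeq2 and, with the 6 libraries alone, 0.000781 without the block and 3.26e-06 with it. Of 12 Fc and complement receptors, 1 rose and 3 fell: the inhibitory Fcgr2b was at 166, 141 and 195 and 31.1, 48.5 and 50.2 CPM (-1.95 ± 0.25), the integrin chain Itgb2 rose (0.81 ± 0.13), and Itgam was at 0.13 ± 0.12 and did not pass. In the Fc receptor list 2 rose with both. Of 11 complement components 0 rose and 0 fell (median -0.81), with 1 member at an unadjusted p under 0.05 and 1 lower in DESeq2, and the C1q chains C1qa, C1qb and C1qc were at -1.51 ± 0.74, -1.18 ± 0.61 and -1.28 ± 0.62. When only the 6 libraries compared were fitted, 4 of the 11 fell, these 3 chains among them (adjusted p = 0.0243, 0.0128 and 0.0078). The number that rose was 1 with the block, with both or without 200 µM replicate 2. Of 13 costimulatory and checkpoint ligands, 5 rose and 2 fell, with Cd83 at 16, 22.1 and 15.1 and 2.43, 3.13 and 2.76 CPM (-2.68 ± 0.34) and Vsir, a checkpoint ligand, higher (1.04 ± 0.17), while 3 rose without control replicate 2.

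Matrix and adhesion genes held several of the largest rises. Of 19 matrix protease and plasminogen genes, 9 rose and 3 fell (median 1.70), while 1 fell without 200 µM replicate 2. Mmp19 was at 31, 32.6 and 36.2 CPM in controls and 123, 155 and 131 CPM with heme-albumin (2.04 ± 0.13), the neutrophil collagenase Mmp8 at 101, 112 and 92.7 and 719, 1243 and 923 CPM (3.24 ± 0.33), and the urokinase receptor Plaur at 56.7, 47.6 and 60.8 and 165, 205 and 167 CPM (1.70 ± 0.14). Mmp12, macrophage elastase, was at 299.6, 353 and 292 and 441, 5549 and 902 CPM (2.87 ± 0.91), and most of its treated mean came from replicate 2. Mmp12 did not pass without control replicate 1, 2 or 3 or 200 µM replicate 2 or with the replicate block (adjusted p = 0.115, 0.0931, 0.11, 0.358 and 0.0686, with a range of 0.0136 to 0.358 over the alternatives). Urokinase itself (Plau) fell (-1.61 ± 0.52). Plau did not pass without control replicate 1 or 3 or 200 µM replicate 2 or 3 (adjusted p = 0.102, 0.0821, 0.149 and 0.078, with a range of 2.01e-05 to 0.149 over the alternatives). Of 20 integrin and adhesion genes 7 rose and 3 fell. Esam, an adhesion molecule named for endothelial junctions (ENSMUSG00000001946, chromosome 9, 37528078 to 37538319), was at 0.128, 0.242 and 0.215 CPM in controls and 197, 238 and 180.3 CPM with heme-albumin and rose by 9.99 ± 0.21 (adjusted p = 2.04e-12), the smallest p of all genes. It had 8 counts over the controls and 7276 over the treated libraries, while the endothelial genes Cdh5 and Pecam1 were at -0.19 ± 0.34 and 1.04 ± 0.68 and did not pass and Kdr fell (-1.71 ± 0.39). Integrin chains Itgal (1.83 ± 0.25) and Itgb7 (2.28 ± 0.25) rose.

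Of 30 cell cycle genes, 1 rose, the cyclin gene Ccnd3 (0.67 ± 0.20), and 0 fell in edgeR or in DESeq2 (3 at an unadjusted p under 0.05, median -0.67), and Mki67 was at 368, 242 and 248 CPM in controls and 204, 114 and 132 CPM with heme-albumin (-0.93 ± 0.63). With only the 6 libraries compared in the fit, 25 of the 30 fell (27 with the block as well, 1 with the block and all libraries) and Mki67 passed (adjusted p = 0.00982), so this result depends on whether the other groups are in the fit. Ccnd3 did not pass without control replicate 1 or 3 or 200 µM replicate 2 (adjusted p = 0.126, 0.0813 and 0.101, with a range of 0.000403 to 0.126 over the alternatives). With both, 2 rose. Of 30 cytosolic ribosomal proteins, 12 rose and 0 fell (median 0.28), while 2 rose without control replicate 1 or 3 or 200 µM replicate 2 and 4 rose without 200 µM replicate 1. Many of them have processed copies in the genome, which makes their counts uncertain. Of 24 mitochondrial ribosomal proteins, Mrpl4 (0.48 ± 0.14) and Mrps10 (0.35 ± 0.10) rose. Mrpl4 did not pass without control replicate 1 or 3 or 200 µM replicate 1 or 2 (adjusted p = 0.136, 0.11, 0.0665 and 0.116, with a range of 0.00254 to 0.136 over the alternatives). Mrps10 did not pass without control replicate 1, 2 or 3 or 200 µM replicate 1, 2 or 3 or with no filter (adjusted p = 0.0507, 0.139, 0.0809, 0.0532, 0.0931, 0.0612 and 0.0574, with a range of 0.022 to 0.139 over the alternatives). In the mitochondrial ribosome list 1 rose with no filter, 4 rose with the 6 libraries alone or with both and 1 fell with the 6 libraries alone or with both. Of 20 immediate early genes, 7 rose and 0 fell, while 3 rose without 200 µM replicate 2 and 4 rose without control replicate 1 or 3 and 1 fell without control replicate 2. In the immediate early list 12 rose with the 6 libraries alone, 13 rose with both and 1 fell in DESeq2, with the block or with both. Fosl1, a member of the AP-1 family, was at 1.53, 0.605 and 1.4 CPM in controls and 30.4, 36.3 and 31.2 CPM with heme-albumin (4.82 ± 0.36), while Fos and Jun were at 0.57 ± 0.40 and 0.01 ± 0.16 and did not pass. Of 19 p53 targets 4 rose and 2 fell, while 0 fell without control replicate 1 or 3 or 200 µM replicate 1 or 2. In the p53 list 1 fell with no filter and 4 fell with both. Gadd45g (2.58 ± 0.41) and Mdm2 (0.59 ± 0.13) rose, and Cdkn1a, p21, was at 0.01 ± 0.17 and did not pass. Of 23 ferroptosis and apoptosis genes 5 rose and 4 fell, while 2 rose without control replicate 2 or 3 or 200 µM replicate 3 and 3 rose without control replicate 1 or 200 µM replicate 2. In the cell death list 3 rose with DESeq2's factors, 7 fell in DESeq2, 9 fell with the 6 libraries alone and 10 fell with both. Ripk3, a kinase of necroptosis, was at 40.8, 37.8 and 37.3 and 104, 92.7 and 86.3 CPM (1.29 ± 0.14). Bcl2a1b, a survival gene with near-identical copies, fell (-3.62 ± 0.45). Of 14 inflammasome genes 4 rose and 2 fell, while 1 fell without control replicate 1, 2 or 3 or 200 µM replicate 1, 2 or 3, with Nlrc4 higher (0.83 ± 0.14) and Nlrp3 at -0.05 ± 0.12, which did not pass. Among the 18 core macrophage genes 5 rose and 3 fell, while 3 rose without control replicate 1, 2 or 3 or 200 µM replicate 3 and 1 fell without 200 µM replicate 2. In the core macrophage list 8 rose with both and 7 fell with both. The factors Cebpa (2.04 ± 0.29) and Irf8 (0.40 ± 0.13) and the matrix protein Emilin2 (0.89 ± 0.28) were among the rises, as was Cebpb, and the Fc receptor chain Fcer1g fell (-0.64 ± 0.14) with Fcgr1 and Maf, while Csf1r, the M-CSF receptor, was at 0.30 ± 0.25 and did not pass. Irf8 did not pass without control replicate 1, 2 or 3 or 200 µM replicate 2 or 3 or with the DESeq2 size factors, with the upper-quartile factors or with no filter (adjusted p = 0.173, 0.0711, 0.116, 0.136, 0.114, 0.0539, 0.05 and 0.0627, with a range of 0.00322 to 0.173 over the alternatives). Emilin2 did not pass without control replicate 1, 2 or 3 or 200 µM replicate 1 or 3 (adjusted p = 0.108, 0.0839, 0.114, 0.123 and 0.0795, with a range of 0.000511 to 0.123 over the alternatives). Of 21 cytokine receptor chains 4 rose and 2 fell, with Csf2ra of the GM-CSF receptor (1.22 ± 0.23) and Il1r1 of the IL-1 receptor (3.32 ± 0.88) higher and Tgfbr1 of the TGF-β receptor lower (-0.73 ± 0.15), while 2 rose without control replicate 1 or 200 µM replicate 2 and 1 fell without control replicate 2 or 3 or 200 µM replicate 1 or 2. In the cytokine receptor list 7 rose with both, 1 fell with no filter and 4 fell with both. Il1r1 did not pass without control replicate 1 or 200 µM replicate 2 (adjusted p = 0.0666 and 0.136, with a range of 0.00341 to 0.136 over the alternatives).

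**Figure D4:**
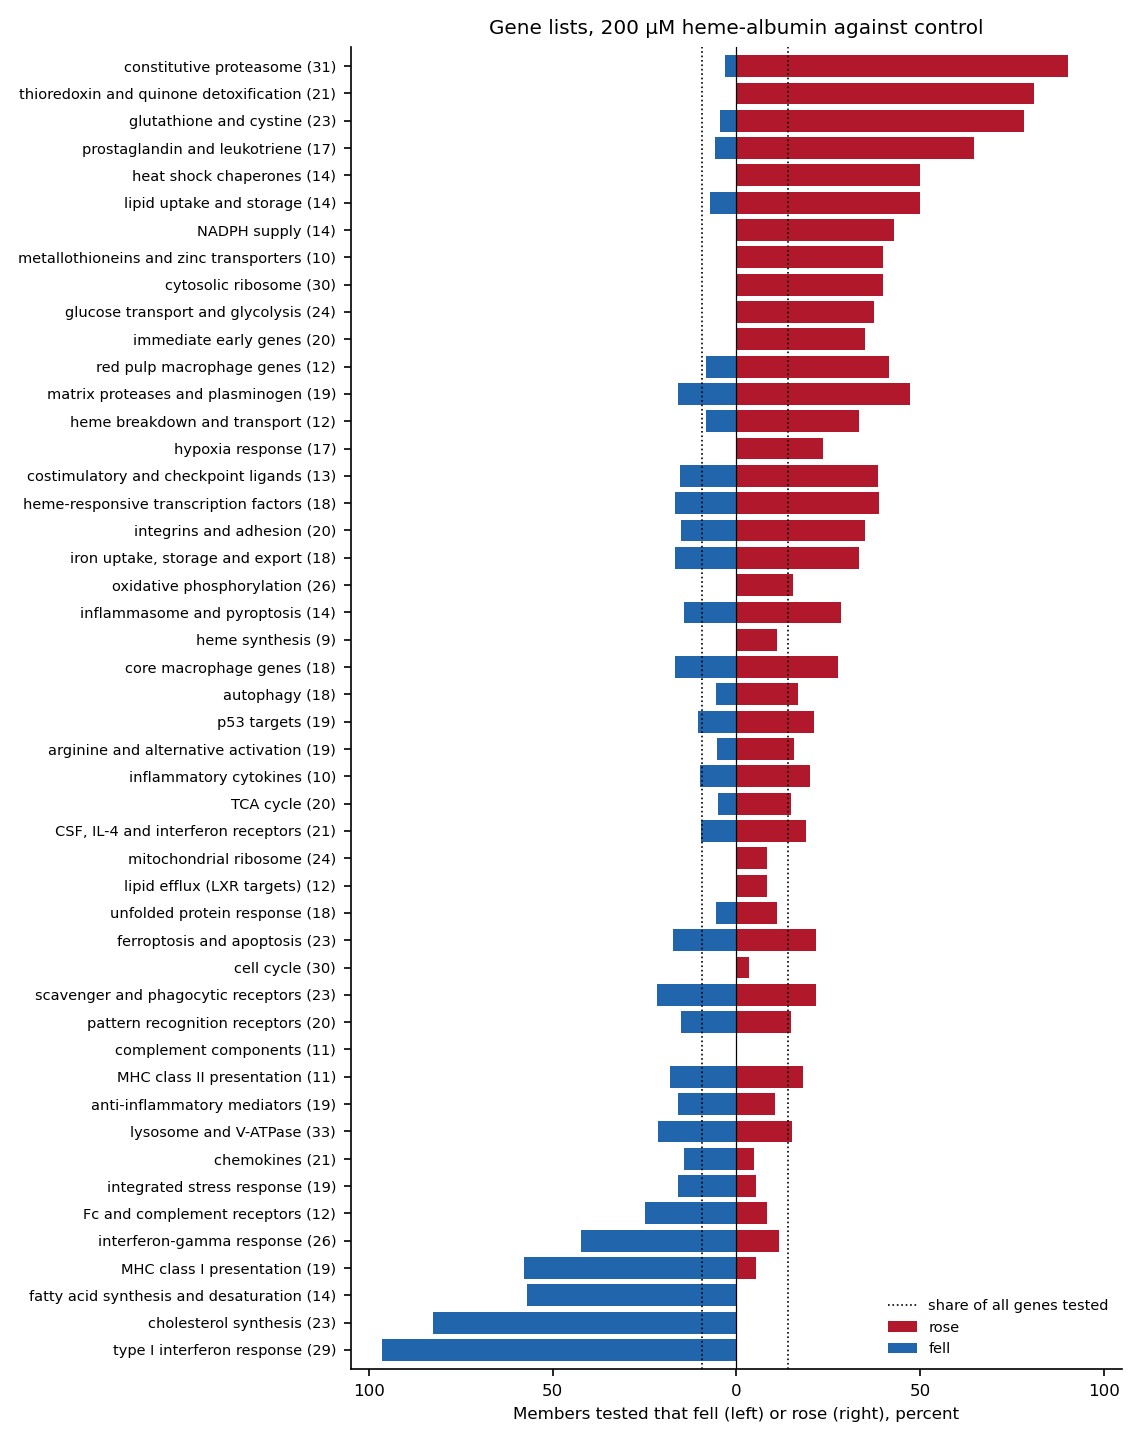
Share of the tested members of each gene list that rose (right, red) or fell (left, blue) with 200 µM heme-albumin, in percent, with the number tested in parentheses. Lists with at least 9 tested members are shown, and dotted lines mark the shares among all genes tested, 14% higher and 9.48% lower. Proteasome and antioxidant lists stand at the top and the type I interferon list at the bottom.

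The 10 largest rises of genes with a mean of at least 1 CPM were led by Esam and included genes that were nearly silent in controls. Six4, a homeobox factor, had 0 counts over the controls and 147 over the treated libraries and was at least 57.7-fold higher. Adh7, an alcohol dehydrogenase that oxidises retinol, had 0 and 71 counts and was at least 27.9-fold higher. These bounds set 3 counts over the controls and cover counting error only. Adh7 did not pass without control replicate 1, 2 or 3 or 200 µM replicate 2 or 3 (adjusted p = 0.0988, 0.0926, 0.077, 0.157 and 0.0541, with a range of 0.00274 to 0.157 over the alternatives). In Six4, Mt3 and Adh7 replicate 2 held most of the signal, at 8.37, 21.4 and 4.82 CPM against 0.215 to 3.61 CPM in replicates 1 and 3. Hsd11b1, which regenerates active glucocorticoid, was at 0, 0.0605 and 0.323 CPM in controls and 7.23, 30.1 and 14.5 CPM with heme-albumin (7.34 ± 0.85). Il1f9, the cytokine IL-36γ, was at 0.256, 0 and 0.107 and 3.44, 46.3 and 6.79 CPM (7.19 ± 1.57). Ptprn, a protein of dense-core secretory granules (6.92 ± 0.60), Arnt2, a bHLH-PAS factor (6.77 ± 0.60), and Mgst2 were also among the 10.

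The 10 largest falls by the same rule held 6 interferon genes: Ifi44 (-4.52 ± 0.47), Ifi206 (-4.92 ± 0.60), Ifi208 (-3.66 ± 0.45), Iigp1 (-4.35 ± 0.60), Rtp4 and Ifit3b (-3.63 ± 0.40). Rtp4 is a member of the type I interferon list, and the rest are named for interferon induction or their families. Several of them have near relatives that make their counts uncertain. The other falls of the 10 were Scd1, Cp, Ccl12 and Smpd3. Smpd3, a neutral sphingomyelinase that releases ceramide, was at 3.58, 3.27 and 4.41 CPM in controls and 0.429, 0 and 0.212 CPM with heme-albumin (-4.01 ± 0.51).

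By counts, the 10 leading genes with heme-albumin were Lyz2, Fth1, Hmox1, Ftl1, Spp1, Prdx1, Lpl, Ctsb, Psap and Ctsd, which describes reads and not transcripts per cell. The 10 most abundant genes of each library took 10.8 to 11.7% of a control library and 16.7 to 19.0% of a treated one, which leaves a smaller share to other genes. Lyz2, lysozyme, was at 26938, 31703 and 27744 CPM in controls and 40584, 48572 and 49002 CPM with heme-albumin and did not pass (0.68 ± 0.31). Spp1, osteopontin, did not pass either (1.20 ± 0.51). Psap, the precursor of saposins, rose (0.72 ± 0.19). Psap did not pass without control replicate 1 or 2 or 200 µM replicate 2 (adjusted p = 0.0737, 0.0701 and 0.0869, with a range of 0.000745 to 0.0869 over the alternatives).

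The higher dose was compared with 200 µM directly. The contrast holds no control mean, but all 15 libraries, controls included, were in the fit behind its p-values and intervals. Of 11883 genes, 0 passed in edgeR (0% called, lowest adjusted p = 0.2918), with 1796 at an unadjusted p under 0.05, and DESeq2 called 2 higher and 9 lower at 400 µM. With the replicate number as a block and only these 6 libraries in the fit, 147 genes were higher and 97 lower. Hmox1 was at 22416, 25568 and 22517 CPM at 400 µM, a difference of -0.17 (95% interval -0.71 to 0.37) from 200 µM on the log2 scale, and Slc40a1 differed by -0.11 (95% interval -0.93 to 0.72). Slc2a1 was at 202, 134 and 189.5 CPM, below all 3 libraries at 200 µM, a difference of -0.54 (95% interval -0.84 to -0.24) with an unadjusted p of 0.00163. Glycolysis genes had a median difference of -0.30 between the doses, and 8 of 24 had an unadjusted p under 0.05. The type I interferon genes had a median of 0.35, with 14 of 29 under that p. Over all genes tested the median was 0.0046, with 1796 of 11883 under it.

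Among the genes of smallest p between the doses, Lrrc39 was 1.66 (95% interval 0.92 to 2.40), Oasl2 1.21 (95% interval 0.59 to 1.82) and Tigar, a regulator of glycolysis, 0.39 (95% interval 0.19 to 0.59). Oasl2 was at 34.2, 61.3 and 35.3 CPM at 400 µM, where each library lay above all 3 at 200 µM and below all controls. Ier3 was -0.71 (95% interval -0.98 to -0.45), Adgre5, the adhesion receptor CD97, -1.22 (95% interval -1.76 to -0.67) and Mtx1 -0.57 (95% interval -0.80 to -0.34). Ier3 and Adgre5 rose at 200 µM, and at 400 µM they stood at 31.6, 36.2 and 32.2 CPM and 34.4, 21.1 and 49.1 CPM. Both comparisons use the same 200 µM libraries, so the values are given side by side only. None of these differences passed adjustment, so in edgeR's test no gene was shown to differ between the doses, which does not show that they act alike.

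**Figure D5:**
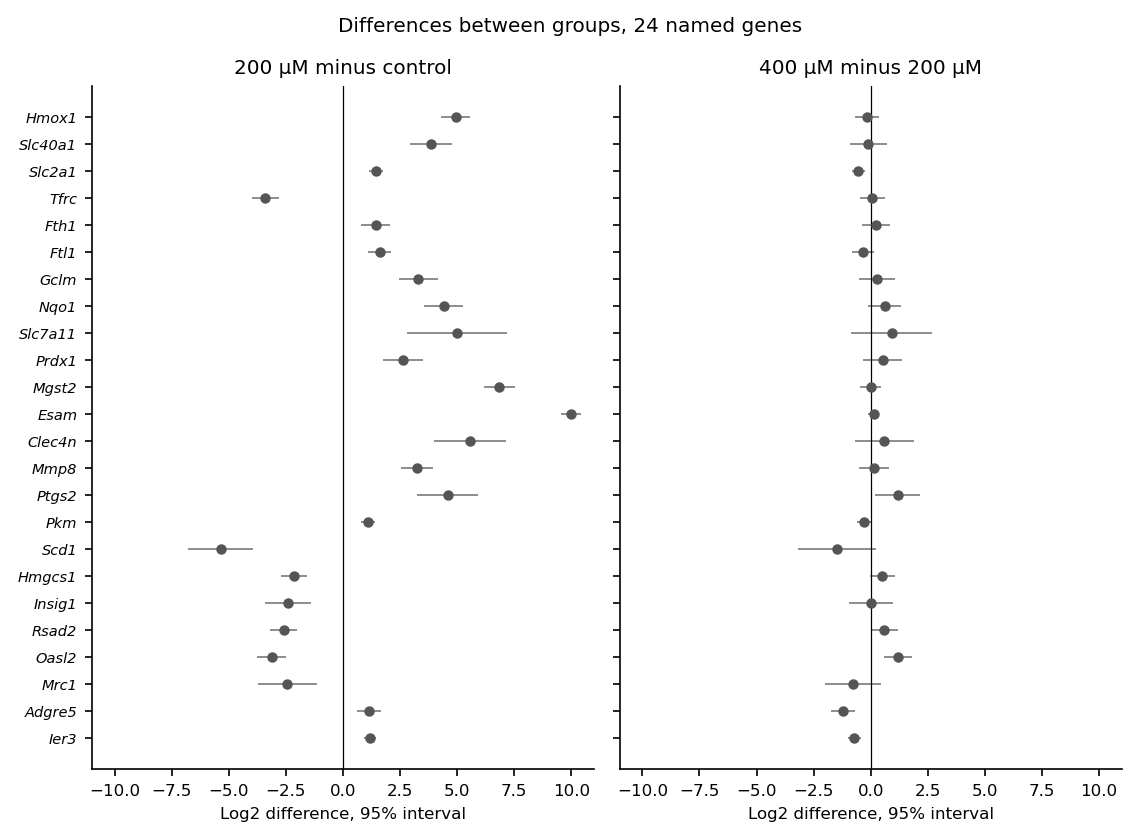
Log2 differences with 95% intervals of 24 named genes, 200 µM minus control (left) and 400 µM minus 200 µM (right), on the same scale. Most changes from control to 200 µM lie farther from 0 than the differences between doses, and the single-gene intervals between doses leave out 0 for Slc2a1, Ptgs2, Rsad2, Oasl2, Adgre5 and Ier3.

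Counts of Abcb6, Adgre5, Adh7, Alas1, Alox5ap, Arnt2, Bcl2a1b, Ccnd3, Cdkn1a, Cebpa, Cebpb, Cox6c, Cp, Csf1r, Ctsb, Ctsd, Ctsl, Cxcl10, Ddit3, Dhx58, Dusp1, Fbxl5, Fcgr2b, Flvcr1, Fosl1, Ftl1, G6pdx, Gabarapl1, Gas6, Gbp7, Gclm, Gpi1, Gss, H2-DMa, Hexa, Hmgcs1, Hmox2, Hspa8, Ifnar2, Irf1, Irf7, Irf9, Itgam, Jun, Keap1, Lrrc39, Lss, Maf, Mafg, Me1, Mmp12, Mmp19, Mpo, Mt2, Mtf1, Mtx1, Mxi1, Nr1d1, Optn, Pkm, Psma5, Psmb5, Ptger2, Ptprn, Rtp4, Scd2, Shmt2, Slc2a1, Slc48a1, Smpd3, Spp1, Sqstm1, Srebf1, Syvn1, Tap1, Tbxas1, Tigar, Tlr3, Tpi1 and Vcam1 are uncertain because an exon of another annotated gene overlaps theirs on GRCm38 and no source used here gives the strand setting of the counting.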

How the data were processed

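RNA from mouse bone marrow derived macrophages was sequenced from stranded TruSeq libraries, per the labels' protocols. The authors deposited raw counts, whole numbers of reads per Ensembl gene, in 1 table of 15 libraries with 25700 genes. Per the submitters' processing notes the tools were STAR 2.7.0e, SAMtools 1.9 and featureCounts, with build GRCm38.p5. No source used here gives the annotation or strand setting of the counting. Of the gene IDs, 25664 were matched to symbols and positions of GENCODE M21.

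Changes were tested in R 4.3.3 by edgeR 4.0.16 with TMM scaling, its filter on low counts, 1 mean per group over all 15 libraries, the quasi-likelihood test and Benjamini-Hochberg adjustment. The TMM factors were 1.084 to 1.122 in controls and 0.9317 to 0.9755 in the 200 µM libraries. The scaling thus differed between the groups, and other scaling factors are among the alternatives. CPM here use the scaled library total. Controls and 200 µM libraries formed the main comparison, and 400 µM against 200 µM the other. The SE is the log2 fold change over the square root of F. Ratios of counts carry exact 95% intervals that cover counting error only. The script was tested on simulated data.

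Genes named were the 10 largest rises and falls with a mean of at least 1 CPM, the members of smallest p in each of 58 lists (4, or 6 in lists of over 20) and 6 genes in each direction between doses. Other genes were added after their values were seen. Some genes that the lists and counts include are not reported here by name. The members and lists were chosen with earlier results of these data known. Promoters (250 bases before to 50 after the start) are from RefSeq on GRCm38.p6, for 9274 of the 11883 genes tested.

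Replicate numbers go with a date in the column names, the same in all 5 groups. Deviations from group means correlated at 0.144, 0.138 and 0.142 between control and treated libraries of the same number. Between other libraries they correlated at -0.115 to -0.022. The 3 deviations in a group sum to 0, so positive values push the others below 0, and these are not separate evidence. Same-numbered libraries thus deviated alike to a small degree. The main test did not use this pairing, and fits with the block are among the alternatives. The labels do not say what the date stands for. The alternatives were DESeq2 1.42.0, its size factors, upper-quartile factors, a fit of the compared libraries alone, the replicate number as a block with all libraries or with those 6, no low-count filter or one at 5 CPM in at least 3 libraries, and each library left out in turn.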

Additional observations from a re-analysis of the deposited data

How the results depend on the processing

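All counts of genes higher and lower with 200 µM heme-albumin had higher above lower and stayed within 1.5 times the reported 1658 and 1127 under DESeq2 (1717 and 1452), DESeq2's size factors (1515 and 1280), upper-quartile factors (1572 and 1188), no filter (1500 and 999) and a filter of 5 CPM in 3 libraries (1530 and 1067). With the replicate number as a block 1799 were higher and 1358 lower. Counts of gene lists that the block or another setting moved by over 1.5 times are given beside those lists. With only the 6 libraries compared 2304 were higher and 2152 lower, and adding the replicate block to that fit gave 2511 and 2425, of which 1591 and 1110 were among the genes reported. Leaving out 1 library gave 1003 to 1396 higher and 650 to 934 lower, the lowest counts being 1003 without control replicate 1 and 650 without 200 µM replicate 2 (where 1029 were higher). Between 400 and 200 µM the 0 genes became 2 higher and 9 lower in DESeq2 and 147 higher and 97 lower with the replicate block and only those 6 libraries, and stayed at 0 under the other settings. The cause of these shifts was not tested. Of 366 genes that the naming rule or the text takes 268 were called and 196 were called in every setting, and over all settings 253 of their values lost the call, 119 gained one and 0 reversed. With 3 libraries per group, differences smaller than the spread between libraries could not be detected.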
